A study of Mus musculus with 10 samples.

Results

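Rab proteins are small GTPases that sit on membranes and direct vesicle budding, transport, tethering and fusion. The Rab genes were taken from the deposited RNA-seq table by symbol (Rab, a number and at most one letter and one digit), which gave 43 of the 10767 genes in the table. The rule reads symbols only, and the table holds only genes whose mean was at least 10 normalized counts in a genotype. Spleen CD8+ cDC1 (CD8+ conventional dendritic cells, the type specialized in cross-presentation of dead-cell and viral antigen) were sorted as CD11c+MHCII+CD8+CD11b- cells from untreated mice aged 8 to 13 weeks. There were 5 libraries from Ppef2+/+ mice and 5 from Ppef2-/- mice, 1 of each genotype in each of 5 sorts, and every library came from 3 pooled mice. The Ppef2-/- mice carried a knock-out-first allele of Ppef2, a protein phosphatase with EF-hands, inherited through the germline and so present in every cell: a gene trap placed upstream of a loxP-flanked exon, made in JM8A3.N1 embryonic stem cells that were injected into C57BL/6 oocytes, with the chimeras crossed to C57BL/6.

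Values are normalized counts, meaning reads per gene divided by a size factor of the library. The deposited values also had the mean of each sort taken out, so that for every Rab gene the 2 values of a sort had 1 common sum throughout. The difference within a sort is intact, but the libraries of a sort are mirror images, both genotypes have the same SD, and the spread between sorts is absent. Unless stated, every SD below is of these deposited values. For 36 of the 43 Rab genes the whole reads behind the values were recovered, which puts the sort means back, and the other 7, with values near or above 1000, were not resolved. Over the resolved genes of the table the Ppef2+/+ libraries held 1394589 to 2270985 reads and the Ppef2-/- libraries 1507350 to 4408269. The Ppef2-/- library was the deeper one in sorts 1 to 3 and the shallower one in sorts 4 and 5. Ppef2 itself had 95 to 228 reads in the Ppef2+/+ libraries and 0 to 8 in the Ppef2-/- libraries, as the labels say. All 11 markers of CD8+ cDC1 were present, among them Xcr1 at 3543 to 3850 and Clec9a at 4016 to 4554 normalized counts in Ppef2+/+, whereas Cd3e, Cd3d and Cd3g of T cells and Cd79a and Pax5 of B cells had no row. Markers of other cells were present at lower levels, with Cd5 of T cells at 38.5 and 40.9, and Cd79b and Ms4a1 of B cells at 27.8 and 29.6 and at 142 and 146, in Ppef2+/+ and Ppef2-/-. The 6 cDC2 markers summed to 908 to 1320 in Ppef2+/+ and 911 to 1323 in Ppef2-/-, and 6 macrophage and monocyte markers, mostly Lyz2, to 1111 to 1335 and 1110 to 1334. Markers of plasmacytoid dendritic cells were lower in Ppef2-/- as a sum. Their 5 genes amounted to 1079 to 1205 normalized counts in Ppef2+/+ and to 933 to 1059 in Ppef2-/-, with Tcf4 lower in Ppef2-/- (limma, log2 fold change -0.31, adjusted p = 0.0182, and adjusted p = 0.711 with the sort as a block). The 5 did not move as one, since Ccr9 had a log2 fold change of 0.03 and Bst2 of -0.05, beside -0.25 for Siglech and -0.82 for Ly6d, none of these 4 with an adjusted p under 0.05.

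A Rab cycles between a GDP-bound form held in the cytosol by a GDP dissociation inhibitor and a GTP-bound form on its membrane. Guanine nucleotide exchange factors load GTP, GTPase-activating proteins end the signal, and effectors such as tethers and motor adaptors read the active form. Each membrane has its own set: Rab1 and Rab2 between endoplasmic reticulum and Golgi, Rab5 on early endosomes, Rab7 on late endosomes and phagosomes, Rab11 on recycling endosomes and Rab3 and Rab27 on secretory granules. In cDC1, phagosome maturation and the recycling store of MHC class I bear on cross-presentation, and Rab43 is known to take part in it in this cell type.

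Many Rabs come as paralogs, so the stretch that encodes the phosphate-binding loop, among the most conserved parts of the family, shows how far their messages can be told apart. The 30 coding bases below start 1 codon before the loop and run 5′ to 3′ on the coding strand, and capitals mark the positions at which the genes of a set differ. They come from GENCODE M21 (GRCm38), and each lies in coding exon sequence. The first set holds the Rab5 genes.
Rab5a (chr17:53483988-53484017, plus strand): CtAggAgagtctgcTgtTggCaaAtcAagc
Rab5b (chr10:128686806-128686835, minus strand): CtGggAgagtctgcAgtGggGaaGtcTagc
Rab5c (chr11:100719973-100720002, minus strand): TtGggCgagtctgcCgtGggCaaGtcCagc
The next pair shows the ubiquitous exocytic and ciliary Rab8a beside Rab8b.
Rab8a (chr8:72161398-72161427, plus strand): atcggGgactcGggGgtAggGaagacctgT
Rab8b (chr9:66919565-66919594, minus strand): atcggCgactcCggCgtTggCaagacctgC
Rab3a and Rab3d, the Rabs of regulated secretion, were the closest pair over this stretch.
Rab3a (chr8:70755937-70755966, plus strand): atTgggaacagcagcgtgggcaaAacCtcG
Rab3d (chr9:21915822-21915851, minus strand): atCgggaacagcagcgtgggcaaGacAtcC
Rab43, the highest Rab of these cells, is set beside the Golgi Rab30.
Rab43 (chr6:87811452-87811481, minus strand): GtGggcGacgcGAgCgtgggCaagacgtgc
Rab30 (chr7:92820033-92820062, plus strand): AtTggcAacgcTGgAgtgggAaagacgtgc

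The Rab3 pair differed at 4 of these bases, the Rab8 pair at 6, Rab43 and Rab30 at 7, and the 3 Rab5 genes at 8 positions between them. Over the whole coding sequence the longest exact run shared by a pair was 35 bases for Rab5a and Rab5b, 29 for Rab3a and Rab3d, 17 for Rab8a and Rab8b, 18 for Rab7 and Rab7b and 14 for Rab43 and Rab30. All of these are shorter than the 50-base reads. Outside the coding sequence Rab11b and Rab4b shared a run of 70 bases and Rab8a and Rab27a one of 52. The libraries did not mark strand, so reads from overlapping genes cannot be told apart. The largest overlaps touched Rab43, whose exons share 75.4% of their length with the gene Gm45140 on the same strand, Rab4b, which shares 65.0% with Gm21983, Rab24, which shares 62.4% with Prelid1 on the other strand, and Rab2b, which shares 59.3% with Gm43766, also on the other strand. The levels of these 4 genes are uncertain to that extent, and smaller overlaps touched others, such as Rab20 and Rab6a.

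Rab levels were compared per kb of exon, since longer messages yield more reads. Rab43 was the highest at 1356 ± 30.6 normalized counts per kb (SD, n = 5) in Ppef2+/+, followed by the late endosomal Rab7 at 705 ± 46.9 and Rab7b, its relative on lysosomes, at 658 ± 46.7. Next came Rab32 at 561 ± 13.02, a Rab of lysosome-related organelles, and Rab5c at 478 ± 13.9. Rab1b stood at 372 ± 6.45, Rab10 at 369 ± 17.8, Rab8b at 359 ± 15.4, Rab11a at 216 ± 10.4 and Rab2a at 214 ± 4.33. The top 10 thus held endoplasmic reticulum and Golgi Rabs, endosomal Rabs, delivery Rabs and 1 Rab of lysosome-related organelles. These 10 were also the top 10 in Ppef2-/-, and 9 of them with the longest transcript as the length, when Rab4b took the place of Rab2a.

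**Figure D1:**
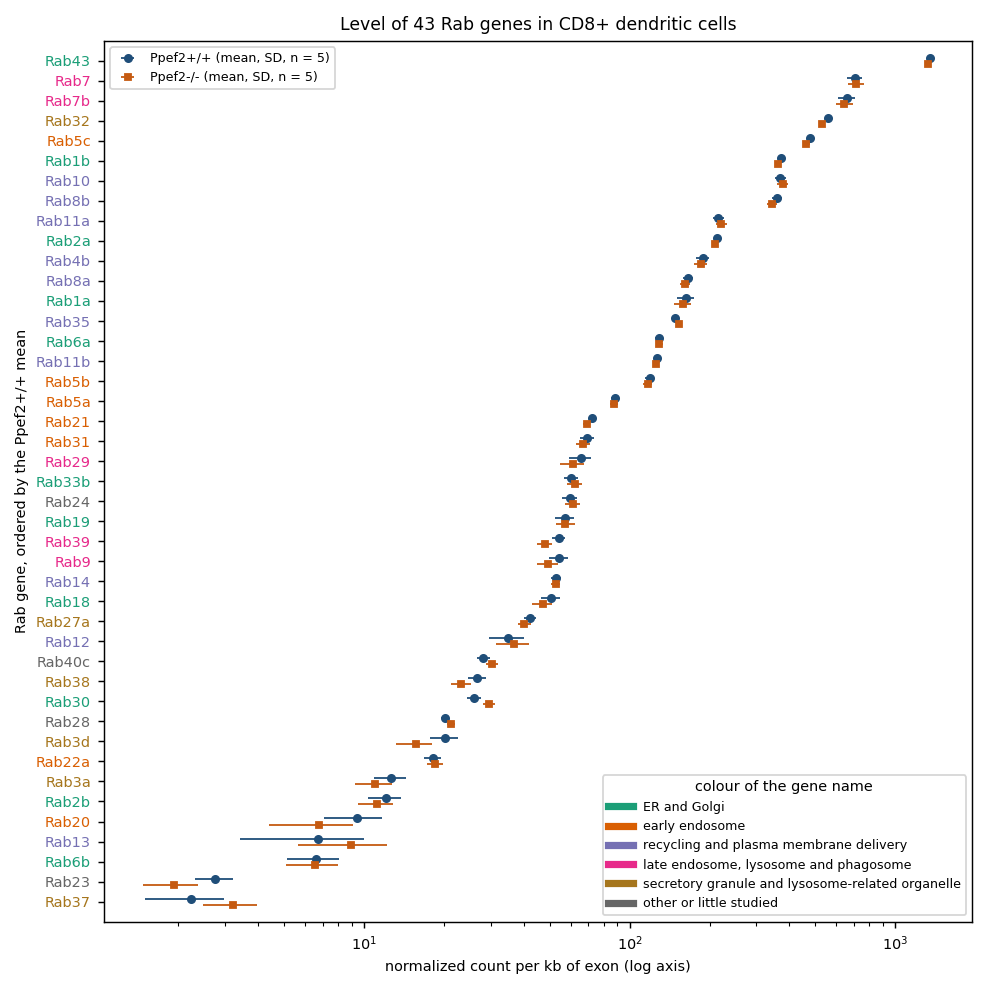
Level of the 43 Rab genes in normalized counts per kb of merged exons (log axis), as the mean and SD of 5 Ppef2+/+ libraries (circles) and 5 Ppef2-/- libraries (squares), with gene names coloured by the membrane they act on. Rab43 at 1356 in Ppef2+/+ stands apart from Rab7 at 705, and the 2 genotypes lie close together along the whole range except among the lowest genes.

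Not every step in that order was larger than the spread. Of the 42 pairs of neighbours, 27 had overlapping values between the Ppef2+/+ libraries, a spread that leaves out the differences between sorts. Rab43 did not overlap Rab7, whereas Rab7 overlapped Rab7b. Rab32, Rab5c and Rab1b were each separated from the gene above them, Rab1b overlapped Rab10, and Rab10 overlapped Rab8b. At the low end, Rab20, Rab13, Rab6b, Rab23 and Rab37 lay between 9.40 and 2.23 per kb in Ppef2+/+. The whole range from Rab43 to Rab37 covered 607-fold with merged exons as the length. It was smaller with the longest transcript as the length, from 1627 to 4.56 per kb in Ppef2+/+. Its low end, Rab37, rests on 4 to 26 reads per library.

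The 43 Rab genes together held 0.510% to 0.519% of all normalized counts in the Ppef2+/+ libraries and 0.5004% to 0.509% in the Ppef2-/- libraries. Both ranges rest on the deposited values, so they leave out the spread between sorts, and the gap between them was not tested. Rab43 alone made up 25.9% to 28.2% of the summed Rab counts over the 10 libraries. Of the summed Rab counts in Ppef2+/+, genes of the endoplasmic reticulum and Golgi held 39.3%, recycling and delivery Rabs 24.7%, late endosome, lysosome and phagosome Rabs 18.9%, early endosome Rabs 10.1% and Rabs of secretory granules and lysosome-related organelles 5.93%. In Ppef2-/- the same shares were 39.3%, 24.9%, 18.9%, 9.96% and 5.65%. These shares are not corrected for length. In Ppef2+/+, Rab43 alone held 7493 of the 10874.5 summed counts of the endoplasmic reticulum and Golgi genes, so that group's lead rests on it.

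No Rab gene passed the test between genotypes. With limma on log2(normalized count + 1), adjusted by Benjamini-Hochberg over all genes, 0 of 43 Rab genes had an adjusted p under 0.05, where 0.957% of all genes did, and with the sort as a block 0 of 43 again, where 0.00929% did. At an unadjusted p under 0.05 there were 5 of 43 Rab genes (11.6%) without the block, against 17.5% of all genes, and 2 of 43 (4.65%) with it, against 4.29%. Limma with voom weights on the recovered reads and the sort as a block gave 0 adjusted and 2 unadjusted calls among the 36 resolved Rab genes. The fit without the block takes its error from values whose sort means are gone, so its p-values are too small. The libraries are bulk samples, in which fewer cells of a type and less RNA per cell cannot be told apart.

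Sizes were small as well. The log2 fold changes (Ppef2-/- over Ppef2+/+) of the 43 genes ran from -0.51 for Rab23 to 0.54 for Rab37, both under 30 normalized counts, with a median of -0.03 beside 0.00089 over all genes. In 34 of 43 genes the Ppef2-/- mean was within 10% of the Ppef2+/+ mean, and no gene reached a 2-fold difference. With the sort as a block, the 95% interval of the log2 fold change lay inside ±0.5 for 34 genes. It was narrow for the high ones, at -0.12 to 0.07 for Rab43 and -0.11 to 0.15 for Rab7, and wide for the low ones, at -1.25 to 0.32 for Rab20. Shares over all genes were not taken for these counts, so they describe the Rab genes alone.

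**Figure D2:**
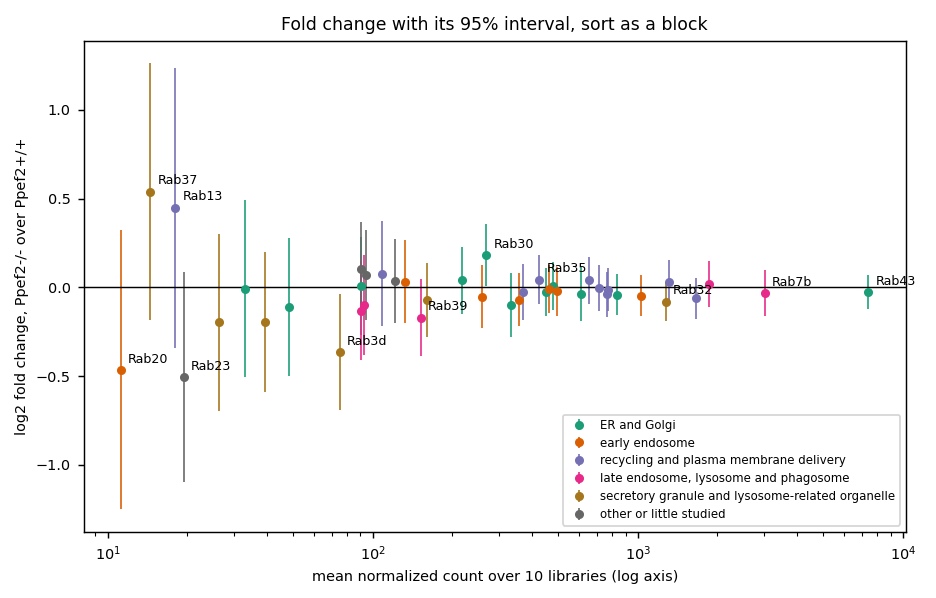
Log2 fold change (Ppef2-/- over Ppef2+/+) of the 43 Rab genes with its 95% interval of the limma fit that had the sort as its block, against the mean normalized count over 10 libraries (log axis), coloured by role. Only the intervals of Rab3d (-0.69 to -0.04) and Rab30 (0.01 to 0.36) leave out 0, neither with an adjusted p under 0.05, and the intervals widen toward low counts.

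Within sorts, the sign of the difference mostly varied. In 27 of the 43 genes it was split 3 to 2 between the sorts, and the share of such splits over all genes was not taken. A 3 to 2 split is also the most frequent outcome of 5 random signs, so the count alone marks no trait of the Rab genes. Rab3d was lower in Ppef2-/- in 5 of 5 sorts, as 2.92% of all genes were, and Rab35 was higher in 5 of 5, as 3.26% of all genes were. That makes 1 of 43 in each direction.

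**Figure D3:**
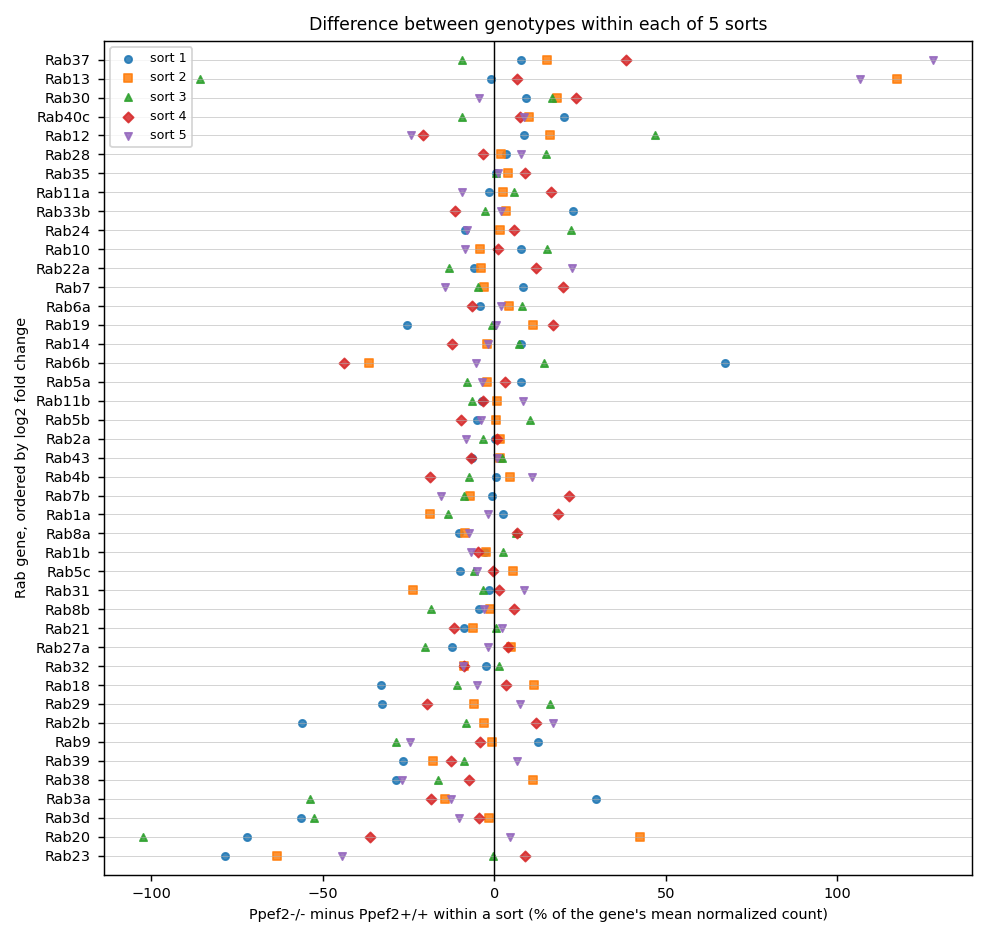
Ppef2-/- minus Ppef2+/+ within each of the 5 sorts for the 43 Rab genes, as a percent of the gene's mean normalized count, with 1 symbol per sort and genes ordered by log2 fold change. For Rab3d all 5 symbols lie left of 0 and for Rab35 all 5 lie right of it, and the widest scatter belongs to low genes such as Rab13, Rab20 and Rab37.

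Among the Rabs of the endoplasmic reticulum and Golgi (11 genes), 7 had a negative and 4 a positive log2 fold change, from -0.11 to 0.18, with a median of -0.03. Rab43 held, in order from sort 1 to sort 5, normalized counts of 7671, 7370, 7343, 7684 and 7398 in Ppef2+/+ and of 7182, 7483, 7510, 7169 and 7455 in Ppef2-/-. It was lower in Ppef2-/- in sorts 1 and 4 and higher in the other 3, and the groups overlapped (limma, log2 fold change -0.03, SE 0.025, adjusted p = 0.636). Rab1b, which works between endoplasmic reticulum and Golgi, gave 804 to 890 in Ppef2+/+ and 801 to 841 in Ppef2-/- with the sort means put back, on 535 to 1724 reads, the smallest spread between sorts of any resolved Rab gene at 1.06-fold. Its relative Rab1a gave 617 ± 44.7 and 601 ± 44.7 as deposited (SD, n = 5). The other Golgi Rabs, Rab2a, Rab2b, Rab6a, Rab6b, Rab18, Rab19 and Rab33b, had Ppef2+/+ means from 33.2 to 479 and no unadjusted p under 0.05.

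Rab30, a Golgi Rab also tied to autophagy of bacteria, had the smallest p of the family without the block. Once sort means were restored it held 203, 199, 284, 296 and 274 normalized counts in Ppef2+/+ and 228, 248, 329, 359 and 262 in Ppef2-/-, on 146 to 490 reads. The ratio of Ppef2-/- to Ppef2+/+ was 1.12 to 1.25 in sorts 1 to 4 and 0.955 in sort 5, and the groups overlapped, with sorts 1 and 2 low in both genotypes. The log2 fold change was 0.18 (limma, SE 0.051, adjusted p = 0.105, and adjusted p = 0.995 with the sort as a block). Without sort 5 the adjusted p was 0.0338 without the block, and no other Rab gene passed in any setting tried.

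The 7 early endosome Rabs spanned log2 fold changes of -0.46 to 0.03. Rab5a, Rab5b and Rab5c drive fusion of early endosomes and were 1048 ± 30.4 for Rab5c, 499.9 ± 18.7 for Rab5b and 463 ± 14.3 for Rab5a in Ppef2+/+, and 1015, 492 and 461 in Ppef2-/-. Rab5c was lower in Ppef2-/- in 4 of 5 sorts, with differences of -104 to -4.36 normalized counts, and higher in sort 2, at 55.1 (log2 fold change -0.05, limma adjusted p = 0.459). Per kb, Rab5c exceeded Rab5b, at 119 ± 4.46, and Rab5a, at 87.9 ± 2.72, without overlap. Rab22a, which sorts cargo from early endosomes to recycling tubules, gave 131 ± 9.67 and 134 ± 9.67, and Rab31 gave 264 ± 15.6 and 254 ± 15.6. Rab21, which traffics integrins, gave 365 ± 10.9 and 348 ± 10.9. Rab20, a phagosome Rab induced by interferon in macrophages, had 3 to 17 reads per library, so its log2 fold change of -0.46 (SE 0.25, limma adjusted p = 0.369) rests on few reads and was -0.23 with the sort means put back, -0.26 with a pseudocount of 10 and -0.21 without sort 3.

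Among the 10 Rabs of recycling and delivery to the plasma membrane, 5 had negative and 5 positive fold changes. Rab11a and Rab11b, which mark the recycling compartment, gave 645 ± 31.1 and 777 ± 22.1 normalized counts in Ppef2+/+ and 664 and 770 in Ppef2-/-. Rab14, between Golgi and endosomes, gave 719 ± 29.6 and 717 ± 29.6, with a 95% interval of the log2 fold change of -0.13 to 0.12. Rab8a and Rab8b, which carry cargo to the surface, gave 776 ± 32 and 1697 ± 73.0 in Ppef2+/+ and 756 and 1626 in Ppef2-/-. Rab8b was lower in Ppef2-/- in 4 of 5 sorts, with a difference of -306 in sort 3. Rab10, which serves exocytosis, gave 1297 ± 62.4 and 1327 ± 62.4, Rab4b of fast recycling 373 ± 21.2 and 365 ± 21.2, and Rab12, which directs transferrin receptor to degradation, 106 ± 15.8 and 111 ± 15.8. None of these had an unadjusted p under 0.05.

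Rab35, which returns endosomal cargo to the plasma membrane, was the Rab gene that was higher in every sort. As deposited it held 424, 416, 424, 405 and 423 normalized counts in Ppef2+/+ and 426, 433, 426, 444 and 427 in Ppef2-/-. The groups did not overlap on these values, but the gaps were only 2.02, 16.8, 2.23, 38.5 and 4.14. Restored sort means made the groups overlap, at 372 to 454 and 399 to 458 on 264 to 983 reads. The log2 fold change was 0.04 (limma, SE 0.030, adjusted p = 0.496, and unadjusted p = 0.517 with the sort as a block). Scaled to the table's total, the sign was no longer the same in all sorts, and without sort 4 the log2 fold change was 0.02.

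**Figure D4:**
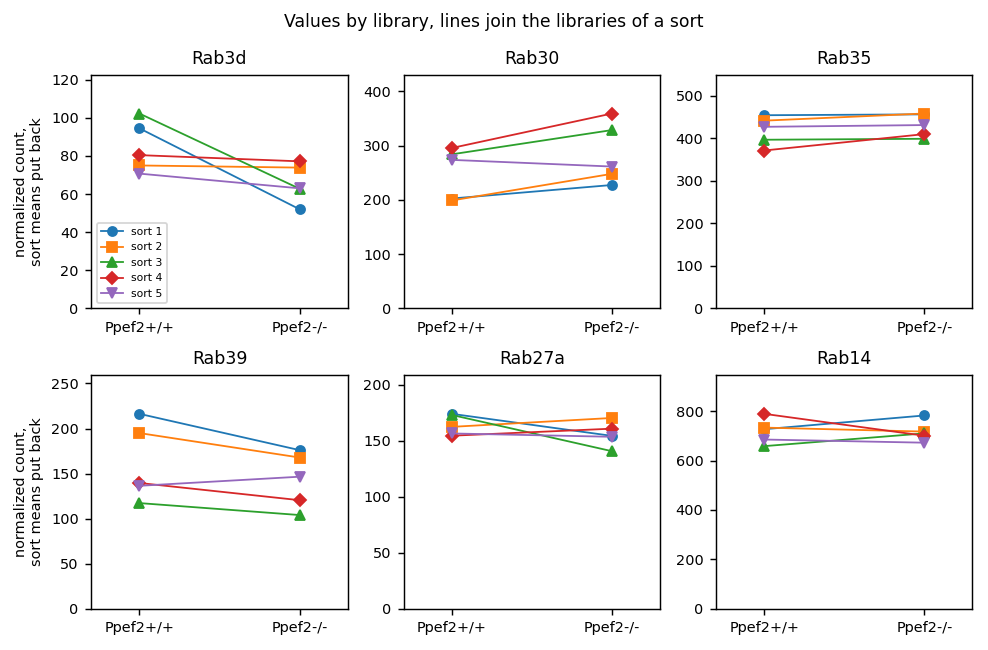
Normalized counts with the sort means put back in the Ppef2+/+ and the Ppef2-/- library of each sort, joined by lines, for Rab3d, Rab30, Rab35, Rab39, Rab27a and Rab14. The lines of Rab3d all fall, steeply in sorts 1 and 3, those of Rab30 rise in 4 of 5 sorts from levels that differ between sorts, and those of Rab27a and Rab14 cross.

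Rab7 and Rab7b led the 5 late endosome, lysosome and phagosome Rabs. Rab7 held 1840 ± 122 normalized counts in Ppef2+/+ and 1863 ± 122 in Ppef2-/-, and its difference was 371 in sort 4, 155 in sort 1 and -265 to -57.9 in the rest. Rab7b, at 3043 ± 216 and 2978 ± 216, was lower in Ppef2-/- in 4 of 5 sorts, with differences of -472 to -24.1, and higher in sort 4, at 652. Both thus had their largest positive difference in sort 4. Rab9, for retrieval from late endosomes to the Golgi and the only X-linked Rab gene here, gave 94.6 ± 7.81 and 86.3 ± 7.81, and Rab29, of the Golgi and stressed lysosomes, 96.1 ± 9.24 and 89.6 ± 9.24.

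Rab39, of phagosomes and autophagy, gave 216, 195, 117, 140 and 136 normalized counts in Ppef2+/+ and 176, 168, 104, 120 and 147 in Ppef2-/-, as restored. It was lower in Ppef2-/- in sorts 1 to 4 and higher in sort 5, and sorts 1 and 2 were high in both genotypes. On the deposited values its log2 fold change was -0.17 (limma, SE 0.060, adjusted p = 0.171, unadjusted p = 0.0144, and unadjusted p = 0.115 with the sort as a block).

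The 6 Rabs of secretory granules and lysosome-related organelles included 5 with negative fold changes, and the median was -0.14. Rab3d, which serves regulated secretion, was 96.4, 75.7, 94.9, 76.8 and 79.0 normalized counts in Ppef2+/+ and 53.9, 74.6, 55.4, 73.5 and 71.3 in Ppef2-/-. The differences of -42.4 in sort 1 and -39.5 in sort 3 stood beside -1.12, -3.26 and -7.71 in sorts 2, 4 and 5. On 46 to 125 reads per library, the values with sort means put back were 70.7 to 102 in Ppef2+/+ and 52.0 to 77.1 in Ppef2-/-, and overlapped. Rab3d thus had the same direction throughout, with a log2 fold change of -0.36 (limma, SE 0.12, adjusted p = 0.133, and unadjusted p = 0.0318 and adjusted p = 0.995 with the sort as a block). The lower plasmacytoid marker sum in Ppef2-/- went the same way, and its part in the Rab3d difference was not tested.

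Rab32, on lysosome-related organelles and phagosomes, held 1291, 1332, 1267, 1332 and 1334 normalized counts in Ppef2+/+ and 1260, 1219, 1284, 1219 and 1217 in Ppef2-/-. It was lower in Ppef2-/- in 4 of 5 sorts, with the exception of sort 3, and the groups overlapped through that sort. Its log2 fold change was -0.08 (limma, SE 0.027, adjusted p = 0.152, and unadjusted p = 0.136 with the sort as a block). Rab38, its close relative, gave 42.1 ± 3.22 and 36.7 ± 3.22, also lower in 4 of 5 sorts, with an interval of the log2 fold change of -0.59 to 0.20.

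Rab27a, the granule-docking Rab that also restrains phagosome acidification in dendritic cells, gave 164 ± 8.70 normalized counts in Ppef2+/+ and 156 ± 8.70 in Ppef2-/-, with a difference of either sign between sorts. Rab3a was low at 28.2 ± 3.90 and 24.5 ± 3.90. Rab37, a granule Rab of mast cells, had the lowest Ppef2+/+ mean, at 11.9 ± 3.93 and 17.1 ± 3.93 on 4 to 26 reads, and its log2 fold change of 0.54 (SE 0.26, limma adjusted p = 0.299) went with a difference of 18.6 in sort 5, on 13 and 23 reads, and of -1.35 to 5.56 in the other sorts, and was 0.18 without sort 5. Platelet, neutrophil and mast cell markers were low, with S100a9 and Itga2b each at no more than 22.9 normalized counts and Pf4, Mpo and Cpa3 without a row.

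The 4 remaining genes, Rab23, Rab24, Rab28 and Rab40c, are little studied or act elsewhere. Rab23, a negative regulator of Hedgehog signalling, gave 24, 19, 15, 13 and 21 reads in Ppef2+/+ and 38, 23, 24, 13 and 9 in the mostly deeper Ppef2-/- libraries, and its log2 fold change of -0.51 (limma, SE 0.18, adjusted p = 0.169, and unadjusted p = 0.0893 with the sort as a block) went with ratios of 0.537, 0.525 and 0.589 in sorts 1, 2 and 5 and of 0.997 and 1.14 in sorts 3 and 4. Rab13, a tight junction Rab counted with the delivery group, was equally thin, with 4 to 45 reads, a ratio of Ppef2-/- to Ppef2+/+ of 4.88 in sort 2 and 0.459 in sort 3, and a log2 fold change of 0.45 (SE 0.34, limma adjusted p = 0.534), which ran from 0.11 without sort 2 to 0.87 without sort 3. Rab24, linked to autophagy, gave 120 ± 7.65 and 123 ± 7.65, Rab28, of cilia and photoreceptors, 91.7 ± 3.25 and 96.4 ± 3.25, and Rab40c, which recruits a ubiquitin ligase, 87.1 ± 4.83 and 93.8 ± 4.83.

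For several Rabs the spread over sorts, once restored, went beyond counting error. Over the 5 Ppef2+/+ libraries the coefficient of variation of the 36 resolved genes had a median of 13.3%, and counting error alone gave 8.75%. In 10 genes the first was more than 2 times the second: Rab1a, Rab5a, Rab5b, Rab6a, Rab9, Rab11b, Rab20, Rab30, Rab31 and Rab39. The share of such genes over the whole table was not taken, so this spread is not shown to be particular to Rab genes. Rab5a was low in sort 1, at 382 in Ppef2+/+ and 418 in Ppef2-/-, and in sort 5, at 410.3 and 393, and high in sorts 3 and 4 in both genotypes, at 568 and 527 in Ppef2+/+ and 531 and 541 in Ppef2-/-. Rab5b was highest in sort 1, at 571 and 545, and gave 461 and 413 in sort 4. Rab39 varied 1.77-fold between sort means, Rab9 1.62-fold and Rab30 1.52-fold. What differed between the sorts is not given in the sources used here.

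**Figure D5:**
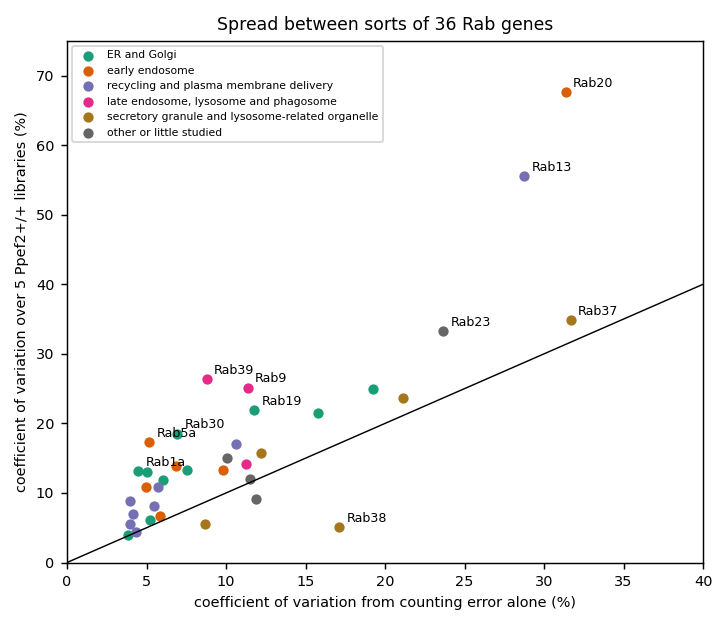
Coefficient of variation over the 5 Ppef2+/+ libraries with the sort means put back, against the one that counting error alone gives, both in percent, for the 36 Rab genes with recovered reads, with a line of equality. Rab39 at 26.4% against 8.80% and Rab5a at 17.3% against 5.16% lie well above the line, and Rab38 and Rab27a lie below it.

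The genes that run the Rab cycle were examined beside the Rabs. Of 156 listed, 139 were in the table, and 1 of them, higher in Ppef2-/-, had an adjusted p under 0.05 without the block and 0 with it (limma), beside 0.957% and 0.00929% of all genes. At an unadjusted p under 0.05 there were 16 (11.5%) and 2 (1.44%), beside 17.5% and 4.29% of all genes. In 5 of 5 sorts, 5 of the 139 were lower and 5 higher, beside 2.92% and 3.26% of all genes. The median log2 fold change was 0.0031. Rab3il1, an exchange factor for Rab8, had the lowest log2 fold change of the 139, so it does not stand for the list. It gave 48.2 ± 5.43 in Ppef2+/+ and 33.8 ± 5.43 in Ppef2-/- and was lower in 5 of 5 sorts (log2 fold change -0.51, SE 0.13, limma adjusted p = 0.0804, and 0.995 with the block).

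The 9 carriers and processing enzymes of Rabs had log2 fold changes of -0.25 to 0.08. At an unadjusted p under 0.05 (limma) 2 of the 9 (22.2%), both lower in Ppef2-/-, passed without the block, beside 17.5% of all genes. With the block 0 did, beside 4.29%. The GDP dissociation inhibitor Gdi2 gave 4577 normalized counts in Ppef2+/+ and 4410 in Ppef2-/-. The Rab escort proteins that present Rabs for prenylation gave 224 and 205 for Chm and 138 and 140 for Chml. The subunits of the geranylgeranyl transferase gave 177 and 187 for Rabggta and 165 and 162 for Rabggtb. Of the other accessory genes, Rabif gave 79.9 and 67.2, Rabac1 206 and 194 and Arl6ip5 496 and 509, and Rabif was lower in 5 of 5 sorts (log2 fold change -0.25, limma adjusted p = 0.259). None of these named genes had an adjusted p under 0.05 with or without the block.

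The GENCODE M21 annotation names 59 protein-coding genes by the same symbol rule, and 16 had no row in the table used here. Among them were Rab27b, the partner of Rab27a on granules, the neuronal and endocrine Rab3b and Rab3c, Rab34, which is tied to lysosome positioning, Rab39b, Rab17 and Rab25 of epithelia, Rab26, Rab33a, Rab44 and Rab4a. These genes were not analysed here.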

How the data were processed

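CD8+ cDC1 of 5 sorts were measured by RNA-seq. The deposited values are a signal in normalized counts: the authors aligned single-end 50-base reads to mm10 (HISAT in the methods, TopHat2 2.0.3 in the submitters' processing notes), counted reads per RefSeq gene in Partek 6.6, divided them by DESeq2 size factors, set values below 1 to 1 and removed genes whose mean was below 10 in both genotypes. In addition, the values of a sort add up to 1 sum per gene (relative spread at most 6.28e-06 over the 10721 genes with no value at 1), so sort means were taken out, which the fit without a block does not account for. The 43 members, the roles and the gene lists were chosen with earlier results of these data known.

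Genotypes were compared with limma 3.58.1 in R 4.3.3 (trend, pseudocount 1, two-sided, Benjamini-Hochberg over 10767 genes), with the sort as a block as the alternative. The labels give the sort of each library, which pairs them. Deviations of the 2 libraries of a sort, with sort means put back, correlated across 8113 genes at 0.0624 (sort 5) to 0.416 (sort 1). In sorts 2 to 5 a library of another sort correlated more (up to 0.421), so these correlations do not show the pairing. The pairing comes from the labels, and the common sum per gene of the 2 libraries of a sort matches it. Whole reads were solved per gene from the differences within sorts and the common sum. This gave 1 solution for 9621 of the 9627 genes below 1000, with all low genes matching the sum against 3.18% for the next best set of steps. Both steps were tested on simulated data. Lengths, positions and sequences came from GENCODE M21. Tests compare pools of mice, not single mice, and the error of the fit without the block leaves out the spread between sorts. Named Rab genes were those with an adjusted p under 0.05, those with 1 sign in all sorts, the 10 highest per kb, the 5 lowest by mean, and those with a part in cross-presentation or secretory organelles. Alternatives were pseudocounts of 0.5 and 10, a mean of at least 20, other scalings, no trend, the block, recovered reads, and each library or sort left out. All 10 columns were used, and there were no columns of other samples. Values of some genes of the lists, including the 1 regulator with an adjusted p under 0.05, are not reported here.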

Additional observations from a re-analysis of the deposited data

Results flagged for a closer look

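Among the deposited values, no Rab gene had a library far from the other 4 of its genotype by Dixon's test, in 86 groups. The 2 groups of a gene are mirror images there, so they give the same result. With the sort means put back, 4 of 72 groups had one, where chance gives about 3.6. The 2 groups of a gene share their sorts, so the 72 are not independent. Rab2a, which works between endoplasmic reticulum and Golgi, was low in sort 5 in both genotypes, at 408 normalized counts in Ppef2+/+ beside 459 to 476 in the other sorts and at 371 in Ppef2-/- beside 460.0 to 477. Rab11a of recycling endosomes was high in the Ppef2-/- library of sort 4, at 794 beside 594 to 648. Rab18 of the endoplasmic reticulum and lipid droplets was high in the Ppef2-/- library of sort 2, at 381 beside 301 to 315.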

How the results depend on the processing

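The number of Rab genes with an adjusted p under 0.05 was 0 in all settings but 1, and was 1 (Rab30) without sort 5. The log2 fold changes of the single Rab genes moved by less than their SD between sorts in all 1050 values over 25 settings. That measure is a wide one, since Rab13, at 0.11 without sort 2 and 0.87 without sort 3, also stayed within it. Settings that change only the error, such as the block or no trend, cannot move a log2 fold change. None of the 43 changed direction with the other 2 scalings. Rab genes with the same sign in every sort numbered 1 with values scaled to the table's total, where Rab35 was lost, and, with a sort fewer to satisfy, 4 without sort 1, 4 without sort 2, 6 without sort 3, 6 without sort 4 and 4 without sort 5, where 11.04% to 13.5% of all genes kept 1 sign (6.18% with all sorts). Leaving out each library in turn gave 0 to 0 adjusted calls and a median log2 fold change of -0.03 to -0.02 for the Rab genes. The list of regulators and effectors was less steady. Its adjusted calls numbered 2 without the trend (Ocrl among them) and without sort 5 (Tbc1d22a among them), and 0 with the replicate block, with sort means put back (with and without the block), with voom on reads and the block, without each of sorts 1 to 4 and without each library (0 to 0). The block changed no other call among these genes. The share of all normalized counts held by the Rab genes in Ppef2+/+ rose from 0.514% to 0.567% without the 10 highest genes of each library, since the denominator is smaller. Depth limits Rab13, Rab20, Rab23 and Rab37, with fewer than 50 reads in any library, and the 7 highest Rab genes have no recovered reads.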
